A study of Homo sapiens with 4 samples.

Results

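Immediate-early-gene-high cells were taken in each of 4 single-cell RNA libraries of the human cell line MSTO-211H, which derives from a pleural mesothelioma. In each library, cells with under 20% of their unique molecular identifiers (UMIs, 1 per captured RNA molecule) on mitochondrially encoded genes were ranked. The rank was the summed UMIs of FOS, FOSB, JUN, JUNB, EGR1, IER2 and DUSP1 over the cell's total UMIs, and the top 10% were taken as members. There were 1639 members of 16400 ranked cells. They comprised 318 of 3183 cells in Control, 242 of 2425 in Radiation, 380 of 3802 in Drug and 699 of 6990 in Drug_Radiation. The members were compared with the other cells of their own library, and the 7 ranking genes were left out of that comparison.

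The cells were grown without serum in ultra-low adhesion, with EGF, bFGF and heparin, as mesothelioma-initiating cells. Drug_Radiation received QTP at 10 µM and 4 Gy, Drug received 10 µM QTP without irradiation, Radiation received 4 Gy with vehicle, and Control received vehicle alone. QTP is not spelled out in the labels, and the title of the study speaks of dopamine receptor inhibition. All libraries were taken 48 h after irradiation, from cells dissociated with TrypLE and pooled. Each treatment was 1 library of 1 line, so no difference between treatments could be tested.

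Immediate-early genes are transcribed within minutes of a stimulus, without new protein synthesis, from promoters already bound by factors such as SRF and CREB. Growth factors acting through the ERK kinases, cell stretching, stress and the handling of cells during dissociation all induce them. FOS and JUN proteins pair as the transcription factor AP-1, EGR1 is a zinc-finger transcription factor, and DUSP1 is a phosphatase that switches MAP kinases off again.

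Among genes outside the ranking, the members held more RNA of CCN2 and CCN1, matricellular growth regulators that are classical targets of YAP and TEAD. They also held more of HES1, a transcriptional repressor downstream of Notch that growth signals induce too. The promoters of CCN2 and HES1, the short genes with the largest differences, are shown from 250 bases before to 50 bases after the start (RefSeq, GRCh38.p14). Capitals mark GGAATG, the core bound by TEAD factors, 1 of 5 motifs searched on both strands. The others were the AP-1 site TGANTCA, the CRE site TGACGTCA bound by CREB, the CArG box bound by SRF, and the NF-kB site. CCN2 lies at chr6:131951323-131951622 on the minus strand and HES1 at chr3:194135898-194136197 on the plus strand.
CCN2: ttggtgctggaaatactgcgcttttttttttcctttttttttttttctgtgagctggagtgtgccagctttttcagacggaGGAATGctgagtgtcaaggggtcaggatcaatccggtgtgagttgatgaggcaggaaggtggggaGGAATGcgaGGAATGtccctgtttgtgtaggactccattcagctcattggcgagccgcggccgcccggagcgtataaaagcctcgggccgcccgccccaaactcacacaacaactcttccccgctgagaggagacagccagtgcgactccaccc
HES1: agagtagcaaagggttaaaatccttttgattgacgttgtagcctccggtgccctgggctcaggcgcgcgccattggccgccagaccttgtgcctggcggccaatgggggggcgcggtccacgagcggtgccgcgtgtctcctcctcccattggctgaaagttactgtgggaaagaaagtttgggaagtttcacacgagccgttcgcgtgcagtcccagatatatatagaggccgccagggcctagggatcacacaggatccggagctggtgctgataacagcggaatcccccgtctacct
The CCN2 window held 3 GGAATG matches and none of the other motifs, and the HES1 window held none of the 5. Of 22114 promoters of this length, 14.4% held GGAATG, 8.05% the AP-1 site, 2.01% the CRE site, 1.26% the CArG box and 0.371% an NF-kB site. A match is a description of the letters and not a bound site.

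The label was checked on the ranking genes themselves, as a description. The members were chosen by these 7 values, so no test is given for them. No UMI of the 7 genes was seen in 72.6% of Control cells, 53.8% of Radiation cells, 17.4% of Drug cells and 13.0% of Drug_Radiation cells. A member of Control held 1 to 11 such UMIs with a median of 1.5, and 80.2% of the members there held only 1 or 2. In Radiation the range was 1 to 12 with a median of 2, and 56.2% of members held 1 or 2. In Drug the members held 3 to 139 and in Drug_Radiation 3 to 123, with a median of 8 in both. The median of the other cells was 0 in both libraries without QTP and 2 in both libraries with it. These counts are not scaled for depth, and the libraries with QTP were deeper. Median UMIs per cell were 2368, 5360, 20886 and 18303 in other cells of Control, Radiation, Drug and Drug_Radiation. The part of depth in these shares and counts was not tested. At least 3 different genes of the 7 were detected in 7.86% of Control members against 0.349% of other cells, and in 26.4% against 1.56% in Radiation. In Drug this share was 86.1% of members against 27.8% of other cells, and in Drug_Radiation 88.4% against 32.9%. The label was thus carried by several genes per cell in the QTP libraries, while most members of Control and Radiation rested on 1 or 2 molecules.

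Values on both sides of the limit lay close together. In Control the last member held 4.871 UMIs of the 7 genes per 10000 UMIs and the next cell held 4.867. The same pair was 3.520 and 3.519 in Radiation, 3.353 and 3.336 in Drug, and 3.877 and 3.876 in Drug_Radiation. Within 10% of the limit lay 113, 89, 151 and 354 cells. A top share of a ranking is a range of values, and whether members form a separate cell type was not tested. The ranking was also split, as a description within the same 7 genes. Cells ranked on FOS, FOSB and EGR1 were read for the other 4 genes, and cells ranked on JUN, JUNB, IER2 and DUSP1 for the remaining 3. All 28 readings were higher in the top 10%, by 1.19-fold to 4.81-fold. Some rested on few molecules: FOSB on 2 UMIs of the top 10% in Control and 5 in Radiation, and FOS on 7 in Control.

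**Figure D1:**
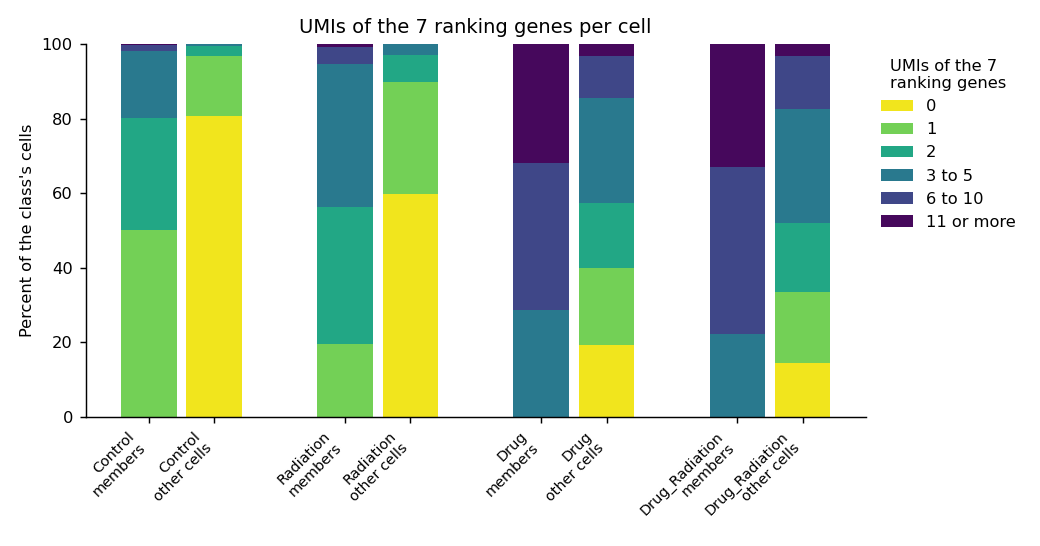
Percent of cells (y axis) by the number of UMIs of the 7 ranking genes, for members (left bar of each pair) and other cells of each library. Members of Control and Radiation mostly held 1 or 2 UMIs, while every member of Drug and Drug_Radiation held at least 3. The counts are not scaled for depth, which was greater in Drug and Drug_Radiation.

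Members were shallower than the other cells of their library, which the division by total UMIs favours, so this is given without a test. Median UMIs per cell were 1820 in members against 2368 in other cells of Control, and 4783 against 5360 in Radiation. They were 15336.5 against 20886 in Drug and 15520 against 18303 in Drug_Radiation. With each cell thinned to 1000 UMIs, the median number of genes was 523 in members against 507 in other cells of Control and 563 against 555 in Radiation. It was 651.5 against 618 in Drug and 612 against 571 in Drug_Radiation, so it was higher in members of 4 of 4 libraries. The exact two-sided sign-flip permutation test then gives the smallest p that 4 pairs allow, which is above 0.05. The median mitochondrial share was 3.19% in members against 3.18% in other cells of Control, 3.53% against 3.53% in Radiation, 3.84% against 4.03% in Drug and 5.42% against 5.15% in Drug_Radiation (exact permutation p = 0.625).

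Cells rich in mitotic RNA were rare among members. Cells with 1% or more of their UMIs on G2 and M phase genes made up 0.943% of members against 1.75% of other cells in Control, and 0.413% against 1.51% in Radiation. They made up 0.526% against 3.33% in Drug and 0.572% against 0.858% in Drug_Radiation. The share was lower in members of 4 of 4 libraries, so that the exact permutation test again gave the smallest p possible, above 0.05. With cells thinned to 1000 UMIs it was 2.20% against 2.34%, 0.413% against 1.65%, 1.05% against 3.65%, and 1.14% in both classes of Drug_Radiation. The shares before thinning rest on 3, 1, 2 and 4 member cells, so the order in Control, Radiation and Drug_Radiation was not detectable at this depth. The counting interval of the member share held the share of other cells in those libraries. In Drug the interval was 0.0638% to 1.89%, below the 3.33% of other cells. No cell of either class reached 1% for S phase genes, which allows a share of up to 0.943% of Control members, 1.24% of Radiation members, 0.789% of Drug members and 0.429% of Drug_Radiation members.

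RNA of all members, and of all other cells, was then summed within each library, and the 4 pairs of sums were compared with edgeR's quasi-likelihood test with the library as a block. Levels below are nuclear-encoded UMI counts scaled to a common total by TMM (CPM), and differences are log2 of members over other cells. Of 7954 genes tested, 2803 (35.2%) were higher and 2700 (33.9%) lower in members at an adjusted p under 0.05, or 69.2% in either direction. Sums of this size and a spread estimated across all genes give small p-values even for small differences, so each count is read beside those percentages. Without Drug_Radiation the counts were 1744 higher and 1583 lower, and without Drug 1448 were lower. Under scaling by the nuclear total, which moves the median of all genes by 0.22 on the log2 scale, 3960 were higher and 855 lower. Directions are therefore relative to the median gene. A stricter call, chosen after most genes had passed, also asked for a 1.5-fold difference and the same sign in 4 of 4 libraries. It was met by 335 genes higher (4.21%) and 25 lower (0.314%). The same sign in 4 of 4 libraries alone was met by 22.5% of tested genes as higher and 28.7% as lower in members. With members taken within bins of equal depth the stricter counts were 144 and 15, and without Radiation 42 genes were lower. The member sums held 749343 and 1212172 nuclear-encoded UMIs in Control and Radiation, against 7149979 and 12256854 in Drug and Drug_Radiation. Counting intervals of single genes were therefore wider in Control and Radiation.

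CCN2 stood at 125, 108, 111 and 158 CPM in members of Control, Radiation, Drug and Drug_Radiation, against 71.1, 51.0, 50.9 and 80.3 CPM in other cells. The 2 ranges did not overlap, and CCN2 was higher in members by 1.03 ± 0.07 on the log2 scale (fitted difference ± SE, edgeR adjusted p = 1.3e-50). CCN1 stood at 353, 334, 297 and 326 CPM in members against 252, 209, 140 and 186 CPM in other cells, a difference of 0.80 ± 0.07 (adjusted p = 1.8e-29). Again every member level was above every level of other cells, and the gap was smallest in Control. HES1 stood at 91.3, 94.3, 63.0 and 69.6 CPM in members against 26.2, 26.5, 30.8 and 43.6 CPM in other cells, a difference of 1.04 ± 0.13 (adjusted p = 1.9e-06). Its log2 ratio was 1.76 in Control and 1.79 in Radiation, and 1.01 in Drug and 0.66 in Drug_Radiation. Part of this came from single cells: 1 member held 21 of 62 HES1 UMIs in Control and another 33 of 109 in Radiation. Without the cell richest in HES1 in each class, the log2 ratios were 1.20, 1.32, 0.85 and 0.58. For CCN2 the same omission left 0.74, 1.02, 1.08 and 0.95. With members taken within bins of equal depth, the fitted differences were 0.97 for CCN2, 0.79 for CCN1 and 0.92 for HES1.

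**Figure D2:**
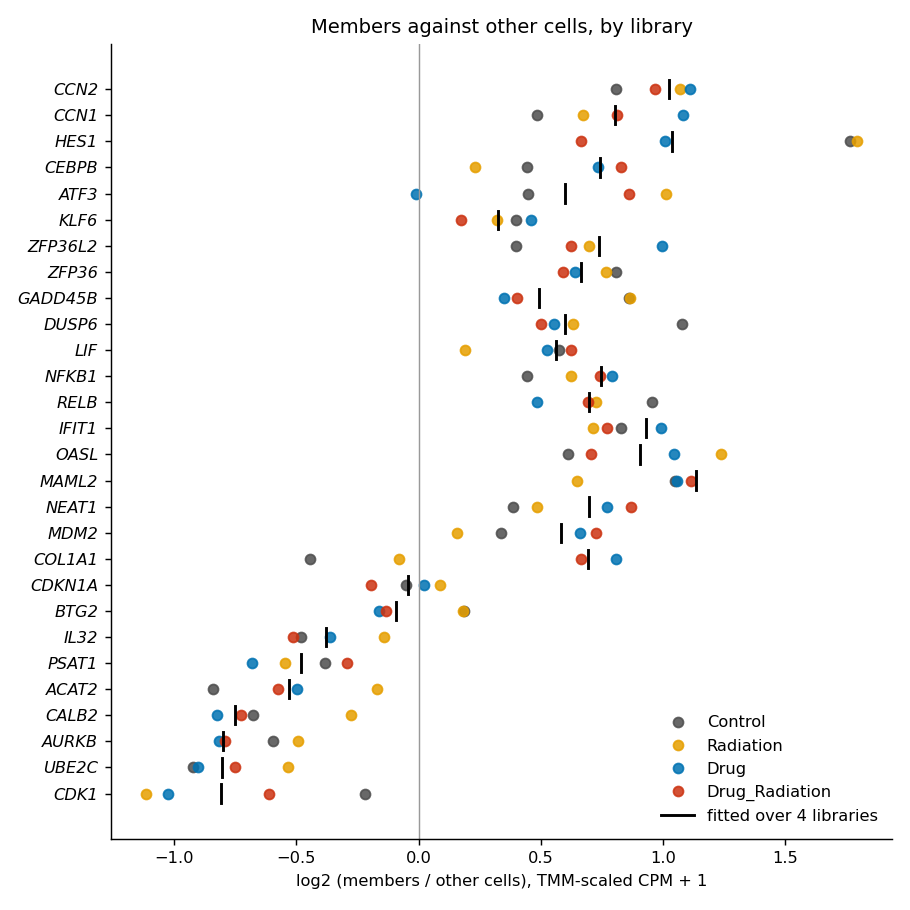
Log2 ratio of members over other cells (x axis) for 28 genes (rows), with 1 point for each library and a black bar at the difference fitted over 4 libraries. All 4 points of CCN2 lie between 0.81 and 1.11, those of UBE2C between -0.92 and -0.53, and those of CDKN1A on both sides of 0.

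Immediate-early transcription factors outside the ranking moved with the 7 genes. Of 27 listed, 16 passed the minimum of 10 CPM, and of these 14 were higher and 1 lower, with a median difference of 0.53 beside -0.00 over all genes tested. The lists were chosen with results of these data known, so they are descriptions. Besides HES1, the higher ones were CEBPB (0.74), BHLHE40 (0.70), CEBPD (0.68), MAFK (0.68), ATF3 (0.60), JUND (0.59), KLF4 (0.54), FOSL2 (0.53), KLF10 (0.42), FOSL1 (0.40), MYC (0.35), KLF6 (0.32) and ID1 (0.23). JUND, FOSL1 and FOSL2 are further AP-1 subunits, and CEBPB and CEBPD are factors of inflammation and differentiation. CEBPB stood at 47.1, 28.5, 44.2 and 81.4 CPM in members against 34.4, 24.2, 26.2 and 45.4 CPM in other cells (adjusted p = 1.5e-20). Its counting interval included 0 in Control (-0.13 to 0.99) and in Radiation (-0.33 to 0.76). ATF3, a stress-induced repressor, did not differ in Drug by more than counting error, where it stood at 12.2 CPM in members and 12.3 CPM in other cells. In Control, Radiation and Drug_Radiation it stood at 11.8, 23.4 and 21.0 CPM in members against 8.37, 11.1 and 11.1 CPM in other cells, and 1 member held 5 of the 8 UMIs in Control. Without Drug_Radiation the difference of ATF3 was 0.26 (adjusted p = 0.24) and that of KLF4 0.33 (adjusted p = 0.084), and without Drug that of ATF3 was 0.95 and that of ID1 0.13 (adjusted p = 0.29). ID3, an inhibitor of basic helix-loop-helix factors, was lower (-0.36), and its adjusted p was 0.060 without Drug and 0.34 without Drug_Radiation, where the difference was -0.18. SRF, which drives many of these promoters, had a difference of 0.19 (adjusted p = 0.077), and of 0.39 (adjusted p = 0.0056) scaled by the nuclear total. NR4A1, an orphan nuclear receptor, was below the minimum, at 4.42, 1.73, 5.31 and 4.00 CPM in members against 1.86, 1.97, 2.596 and 2.56 CPM in other cells.

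Early response genes that act on mRNA or on growth rose as well. Of 23 tested, 19 were higher and 0 lower, with a median of 0.43. ZFP36L2 and ZFP36 encode proteins that destabilise AU-rich mRNAs. ZFP36 stood at 26.5, 36.3, 32.2 and 26.2 CPM in members against 14.7, 20.9, 20.3 and 17.1 CPM in other cells (0.66 ± 0.09, adjusted p = 1.3e-12). Its lowest member level lay above the highest level of other cells, while ZFP36L2 (0.74, adjusted p = 8.4e-27) reached 138 to 177 CPM in members and 76.7 to 127 CPM in other cells. IER5 (0.65), the survival gene MCL1 (0.54), the stress-kinase regulator GADD45B (0.49), IER3 (0.40) and PPP1R15A (0.34), the phosphatase subunit that reverses eIF2α phosphorylation, were higher in 4 of 4 libraries. The 4 that did not pass were PLK2 (0.09), SERTAD1 (0.05), CDKN1A (-0.04) and BTG2 (-0.09). CDKN1A, the p21 cell-cycle inhibitor, stood at 209, 464, 325 and 422 CPM in members against 217, 437, 320 and 484 CPM in other cells (adjusted p = 0.60). BTG2, an antiproliferative gene, stood at 23.6, 52.8, 23.0 and 29.9 CPM in members against 20.6, 46.4, 25.9 and 32.9 CPM (adjusted p = 0.31). Both groups overlapped in levels for these genes. CDKN1A did pass as higher when scaled by the nuclear total (0.16, adjusted p = 0.00027) and when cells were ranked on FOS, FOSB and EGR1 (0.12, adjusted p = 0.013), and PLK2 and SERTAD1 passed under the first of these.

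Genes that ERK signalling induces, many of them feedback inhibitors, were higher in 11 of 17 tested and lower in 0, with a median of 0.24. DUSP6, a phosphatase specific to ERK, stood at 100.1, 104, 94.7 and 81.1 CPM in members against 47.0, 66.6, 64.1 and 57.0 CPM in other cells, with no overlap (0.60 ± 0.07, adjusted p = 6.3e-17). The cytokine LIF (0.56), the RAS pathway inhibitor SPRED2 (0.54) and the receptor kinase EPHA2 (0.54) were also higher in 4 of 4 libraries. The counting interval of LIF included 0 in Control (-0.09 to 1.22) and in Radiation (-0.34 to 0.70). That of EPHA2 included 0 in Radiation (-0.44 to 0.65), so no difference was detectable in these cases. In the list of SRF, YAP and actin cytoskeleton genes, 11 of 26 were higher and 6 lower, with a median of 0.12, near the background in both directions. Scaled by the nuclear total, 15 were higher and 0 lower (median 0.33, beside 0.22 over all genes). Beside CCN2 and CCN1, AMOTL2, an angiomotin that YAP induces, was higher (0.66, adjusted p = 2.0e-18). The lowest of the list were the actin-binding genes CNN2 (-0.23) and TPM2 (-0.23), whose adjusted p was 0.12 and 0.055 without Drug. TPM2 was at -0.14 (adjusted p = 0.10) without Drug_Radiation.

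NF-kB targets and cytokines were higher in 10 of 12 tested and lower in 1, with a median of 0.46; 15 more of the list were below the minimum. NFKB1, which encodes a subunit of the factor, stood at 52.99, 43.2, 44.0 and 44.9 CPM in members against 38.7, 27.7, 25.1 and 26.5 CPM in other cells, with no overlap (0.75 ± 0.08, adjusted p = 3.4e-20). Its counting interval included 0 in Control (-0.09 to 0.96). The subunit RELB (0.70), the chemokine CXCL2 (0.68), the inhibitor NFKBIA (0.55), the adhesion receptor ICAM1 (0.47), BIRC3 (0.46), TNFAIP2 (0.46) and SOD2 (0.43) rose too. RELB, counted among the 10 higher genes, met the minimum of 10 CPM only through members. It lay below that level in other cells of each library. RELB was not tested within depth bins or without Drug_Radiation. Within depth bins 9 of 11 tested genes of the list were higher. The cytokines IL1B (0.36) and IL1A (0.30) were higher in the fit over all libraries. Without Drug the difference of IL1B was 0.25 (adjusted p = 0.18) and that of IL1A 0.46, and without Drug_Radiation they were 0.69 and 0.35 (adjusted p of IL1A = 0.058). IL32 was lower, at 564, 764, 602 and 573 CPM in members against 787, 843, 775 and 818 CPM in other cells (-0.38, adjusted p = 5.0e-07).

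Interferon response genes split. Of 20 tested, 9 were higher and 3 lower, with a median of 0.19. HERC5 had the largest difference of the list (0.97) and was higher in 3 libraries, the exception being Radiation. It was followed by antiviral effectors of the IFIT family and OASL. IFIT1 stood at 20.6, 14.7, 19.7 and 14.99 CPM in members against 11.2, 8.57, 9.42 and 8.36 CPM in other cells (0.93 ± 0.11, adjusted p = 2.0e-16). OASL stood at 29.4, 35.5, 35.0 and 40.4 CPM in members against 18.9, 14.5, 16.4 and 24.4 CPM (0.90 ± 0.08, adjusted p = 1.5e-24). No member level of either gene was as low as the highest level of other cells. The counting intervals of the IFIT1 ratio were -0.056 to 1.72 in Control and -0.058 to 1.53 in Radiation, on 14 and 17 member UMIs. That of OASL was -0.12 to 1.33 in Control, on 20 member UMIs, so no difference was detectable in these cases. IFIT1 met the minimum of 10 CPM only through members. IFIT2 (0.80) and IFIT3 (0.56) were higher in 4 of 4 libraries. In Drug, 1 member held 70 of 178 IFIT1 UMIs and 1 held 82 of 316 OASL UMIs. Without the richest cell of each class, IFIT1 ratios were 0.36, 0.21, 0.34 and 0.70 and OASL ratios 0.26, 0.86, 0.67 and 0.65, while IFIT2 ratios were -0.19, -0.23, 0.79 and 0.64. The lower ones were IFITM3 (-0.30), IFITM2 (-0.27) and ISG20 (-0.27). Without Drug_Radiation IFITM2 was at -0.17 and ISG20 at -0.18 (adjusted p = 0.14), and without Drug the adjusted p of ISG20 was 0.051.

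**Figure D3:**
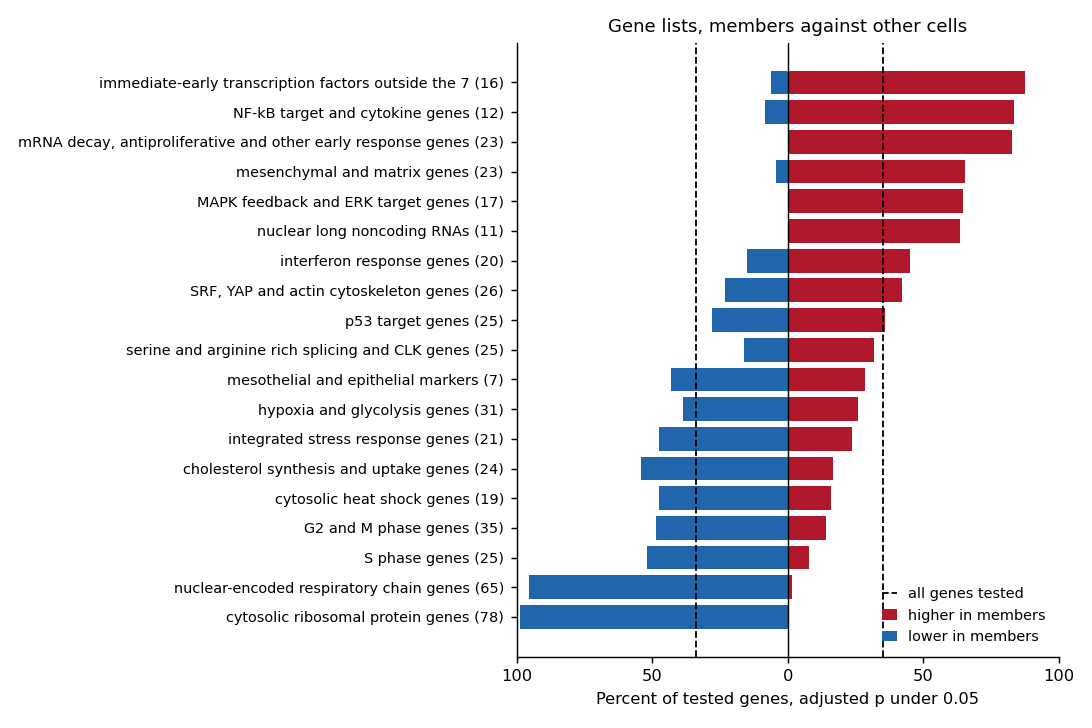
Percent of each list's tested genes (number in brackets) that were higher (right, red) or lower (left, blue) in members at an adjusted p under 0.05. Dashed lines mark 35.2% and 33.9%, the shares over all genes tested, and ribosomal protein and respiratory chain genes lie almost wholly on the lower side. Scaled by the nuclear total, the lists of cell cycle phases, heat shock, integrated stress response, hypoxia, cholesterol and mesothelial genes turn to more higher than lower genes. Under that scaling 3960 of all 7954 genes were higher and 855 lower.

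Cytosolic ribosomal protein genes were lower in 77 of 78, with a median of -0.34. All 78 had a lower level in members of 4 of 4 libraries, beside 28.7% of all genes tested. RPS2 was the gene that did not pass (-0.06, adjusted p = 0.45), and it was higher when scaled by the nuclear total (0.14, adjusted p = 0.00053). By library the list median was -0.52 in Drug_Radiation, -0.34 in Drug, -0.17 in Radiation and -0.30 in Control. RPSA, which encodes a small-subunit protein, stood at 418, 481, 1541 and 1605 CPM in members against 513, 598, 2055 and 2434 CPM in other cells (-0.42, adjusted p = 1.7e-07). Nuclear-encoded respiratory chain genes were lower in 62 of 65 and higher in 1, with a median of -0.36. The exception was ATP5F1D (0.34), whose adjusted p was 0.086 without Drug. ATP5PB, a subunit of the ATP synthase stalk, was lower (-0.47, adjusted p = 2.0e-10). Scaled by the nuclear total, 77 of the ribosomal and 56 of the respiratory genes were lower, with medians of -0.14 and -0.16.

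Under TMM scaling cell cycle genes were lower more often than higher. Of 35 G2 and M phase genes 17 were lower and 5 higher (median -0.10), and of 25 S phase genes 13 were lower and 2 higher (median -0.22). The balance of counts turned when scaled by the nuclear total. G2 and M phase genes were then higher in 12 and lower in 11 (median 0.10), and S phase genes in 5 and 3 (median -0.0069). Over all 7954 genes that scaling gave 3960 higher and 855 lower, with a median of 0.22. Both list medians stayed below it. UBE2C, which feeds the anaphase-promoting complex, stood at 112, 88.2, 68.9 and 62.6 CPM in members against 213, 128, 130 and 106 CPM in other cells (-0.80 ± 0.07, adjusted p = 2.1e-28). CDK1, the mitotic kinase, stood at 39.7, 13.0, 20.9 and 18.3 CPM in members against 46.5, 29.2, 43.6 and 28.4 CPM (-0.81 ± 0.09, adjusted p = 6.6e-18). Both had a lower level in members of each library, and the ranges over libraries overlapped. In Control the counting interval of the CDK1 ratio was -0.85 to 0.34 on 27 member UMIs, so no difference was detectable there. AURKB (-0.80), PLK1 (-0.77) and AURKA (-0.75), mitotic kinases, TOP2A (-0.34), and CENPM (-0.83), SPC25 (-0.78) and CENPN (-0.63) of the kinetochore were lower in 4 of 4 libraries. So were the replication factors GINS2 (-0.64), PRIM1 (-0.62) and PCNA (-0.41). For AURKB, PLK1, AURKA, CENPM, SPC25, CENPN, GINS2 and PRIM1 the counting intervals in Control and Radiation spanned both signs. No difference was detectable for them in those libraries, while their intervals in Drug and Drug_Radiation were wholly negative. Of the genes named as lower, TOP2A did not pass when scaled by the nuclear total (-0.14, adjusted p = 0.17). MKI67, the proliferation marker, did not pass (0.11, adjusted p = 0.42), but was higher under that scaling (0.33, adjusted p = 0.037). The higher S phase genes were TYMS (0.41) and SLBP (0.36), and the higher G2 and M phase genes were NCAPD2 (0.36), TMPO (0.32), SMC4 (0.31), CKAP5 (0.30) and CTCF (0.27). Without Drug_Radiation SLBP, NCAPD2, SMC4, CKAP5 and CTCF no longer passed (0.21, 0.14, 0.29, 0.28 and 0.29, with adjusted p of 0.21, 0.47, 0.061, 0.095 and 0.12). Without Drug the adjusted p of SLBP, SMC4, CKAP5 and CTCF was 0.056, 0.061, 0.062 and 0.21.

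The levels of these genes along the whole ranking are a description, in CPM of nuclear-encoded UMIs without TMM scaling. CCN2 in the top 2% of Control, Radiation, Drug and Drug_Radiation was at 121, 114, 231 and 249, against 50.3, 38.7, 39.9 and 54.0 in cells with no UMI of the 7 genes. In each library it was higher in each step of the ranking than in the one before. CCN1 likewise was at 476, 364, 574 and 502 in the top 2%, against 179, 159, 94.6 and 127 in cells with no UMI. HES1 in the top 2% was at 242, 325, 159 and 105, against 48.3, 36.1, 65.5 and 78.9 in cells between the top 10% and the top 2%. UBE2C was at 60.4, 92.2, 145 and 62.4 in the top 2%, against 160, 107, 163 and 105 in cells with no UMI. In Drug UBE2C was lowest between the top 10% and the top 2%, at 76.5. The G2 and M phase list as a sum went the other way. It was at 1707, 1559, 2689 and 1516 in the top 2%, against 1604, 1363, 2183 and 1357 in cells with no UMI. CDK1 was at 15.1, 13.2, 59.7 and 27.2 in the top 2%, against 33.7, 25.2, 58.8 and 30.1 in cells with no UMI. Depth moved with the ranking: the median was 11711 UMIs in the top 2% of Drug, 23534 in cells of the lower 50% with a UMI and 14819 in cells with none, and its part in these levels was not tested.

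**Figure D4:**
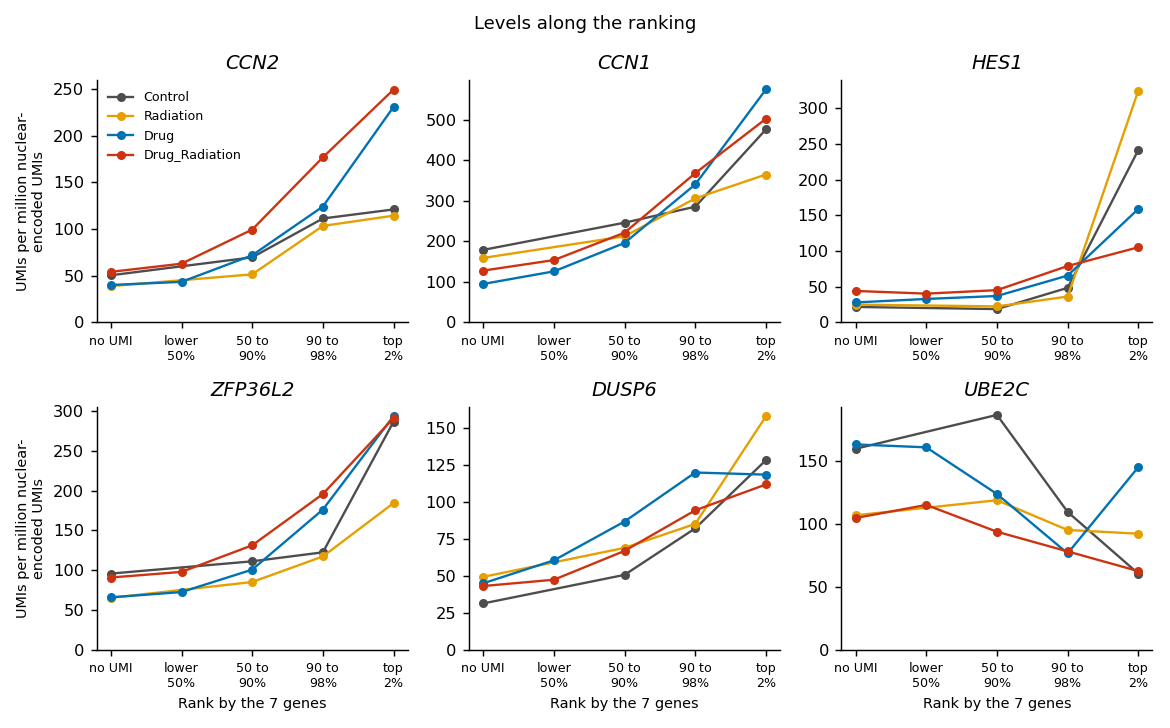
CPM of nuclear-encoded UMIs without TMM scaling (y axes, from 0) of 6 genes in cells ordered by the 7 ranking genes (x axes), with 1 line for each library. Control and Radiation have no point for the lower 50% with a UMI, since over 50% of their cells held none. CCN2 and CCN1 are highest in the top 2% in each library.

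Stress programmes were mixed. Cytosolic heat shock genes were higher in 3 of 19 tested and lower in 9 (median -0.16). The co-chaperone BAG3 (0.49), HSPH1 (0.26) and HSPA4L (0.25) were higher, and HSPE1 (-0.42) and HSPB1 (-0.30) were the lowest. The inducible chaperone HSPA1A stood at 75.1, 136, 81.9 and 94.1 CPM in members against 67.3, 108, 94.7 and 106 CPM in other cells (-0.08, adjusted p = 0.30). Integrated stress response genes were higher in 5 of 21 and lower in 10 (median -0.12). Amino acid transporters SLC7A11 (0.41), SLC7A5 (0.39) and SLC7A1 (0.34), the factor CEBPG (0.34) and SESN2 (0.28) were higher, while ATF4 (-0.36), the factor that drives the response, and the serine synthesis enzyme PSAT1 (-0.48) were lower. DDIT3 did not pass (0.08, adjusted p = 0.31). Both lists turned when scaled by the nuclear total, to 4 heat shock genes higher and 3 lower (median 0.07) and 9 stress response genes higher and 3 lower (median 0.09). Over all 7954 genes that scaling gave 3960 higher and 855 lower (median 0.22), above both list medians. DDIT3 was higher under it (0.31, adjusted p = 7.1e-05). Without Drug_Radiation HSPH1, HSPA4L, SLC7A5, CEBPG and SESN2 did not pass (0.19, 0.30, 0.23, 0.17 and 0.24, with adjusted p of 0.096, 0.081, 0.21, 0.41 and 0.14). Without Drug the adjusted p of HSPH1 was 0.078 and that of SLC7A1 0.057, and HSPA4L and SESN2 were at 0.39 and 0.45.

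Targets of p53 were higher in 9 of 25 and lower in 7 (median -0.04), near the shares over all genes. MDM2, the ubiquitin ligase that p53 induces against itself, stood at 91.3, 110, 98.9 and 167 CPM in members against 72.1, 98.3, 62.3 and 101 CPM in other cells (0.58, adjusted p = 1.3e-16). Its counting interval included 0 in Control (-0.07 to 0.73) and in Radiation (-0.12 to 0.42). The death gene BBC3 (0.48) was also higher, TRIAP1 (-0.37) was lower, and the cytokine GDF15 was at 0.24, or 0.15 without Radiation. Hypoxia and glycolysis genes were higher in 8 of 31 and lower in 12 (median 0.01). The glucose transporter SLC2A3 (0.53) and the oxygen sensor EGLN1 (0.49) were higher, while PGAM1 (-0.33) of glycolysis and the carbonic anhydrase CA9 (-0.39) were lower. Cholesterol genes were higher in 4 of 24 and lower in 13 (median -0.17). Among the higher were the regulator SREBF2 (0.42), its retention protein INSIG1 (0.41) and the enzyme HMGCS1 (0.15), of which HMGCS1 did not pass without Control, Drug or Drug_Radiation (0.12, 0.21 and 0.17, adjusted p of 0.13, 0.12 and 0.15). The synthesis gene ACAT2 was the lowest (-0.53, adjusted p = 4.2e-12). Scaled by the nuclear total, p53 targets were higher in 14 and lower in 1. The hypoxia list turned to 19 higher and 1 lower (median 0.22), and the cholesterol list to 9 higher and 4 lower (median 0.04). These stand beside 3960 higher and 855 lower of all 7954 genes under that scaling (median 0.22).

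Mesenchymal and matrix genes were higher in 15 of 23 tested and lower in 1 (median 0.26). The list median was 0.03 in Control and 0.07 in Radiation, and 0.26 in Drug and 0.32 in Drug_Radiation. The mesenchymal factor TWIST1 (0.75), the collagen COL5A1 (0.63) and fibronectin FN1 (0.62) were higher in 4 of 4 libraries. COL1A1 stood at 5.89, 9.51, 16.4 and 21.5 CPM in members against 8.37, 10.1, 8.94 and 13.2 CPM in other cells (0.69, adjusted p = 4.8e-10). Members were higher in Drug and Drug_Radiation. In Control the log2 ratio was -0.44 with a 95% counting interval of -2.43 to 0.93 on 4 member UMIs, and in Radiation it was -0.08 with an interval of -1.13 to 0.80 on 11, so no difference was detectable there. The difference between libraries was not tested. SPARC was lower (-0.15, adjusted p = 0.039), and its adjusted p was 0.053, 0.37 and 0.18 without Control, Drug and Drug_Radiation. Of 7 mesothelial and epithelial markers tested, 2 were higher and 3 lower, or 4 and 3 scaled by the nuclear total (median 0.13, beside 0.22 over all genes). BNC1 (0.55) and KRT17 (0.28) were higher, with KRT17 at 0.24 (adjusted p = 0.085) without Control and at 0.49 without Drug_Radiation. Calretinin, CALB2, stood at 22.1, 29.4, 25.5 and 19.9 CPM in members against 36.0, 35.8, 45.8 and 33.5 CPM in other cells, with no overlap (-0.75 ± 0.09, adjusted p = 1.4e-16). Its counting interval was -1.56 to 0.049 in Control and -0.83 to 0.22 in Radiation, on 15 and 34 member UMIs. No difference of CALB2 was detectable in those libraries. KRT18 (-0.30) and KRT8 (-0.28), simple-epithelial keratins, were lower.

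Other genes with the largest differences were mostly long genes at low levels. The 15 with the largest rise included MAML2, a Notch coactivator, at 30.9, 10.4, 23.0 and 24.4 CPM in members against 14.4, 6.26, 10.6 and 10.7 CPM in other cells (1.13 ± 0.10, adjusted p = 2.7e-28). FBXL7 (1.09), HMGA2 (1.005), SDK1 (0.97), B4GALNT4 (0.97), STXBP5 (0.94), LINC00472 (0.94), HS3ST3A1 (0.93) and EXT1 (0.89) were among them too. In other cells FBXL7 stood at 8.37, 3.43, 7.20 and 7.32 CPM and STXBP5 at 7.59, 6.86, 7.80 and 7.98 CPM. HS3ST3A1 stood at 10.7, 7.29, 7.89 and 8.58 CPM there. These genes met the minimum of 10 CPM only through members, and FBXL7 was not tested within depth bins or without Drug_Radiation. HMGA2 was at 0.23 in Control and 0.22 in Radiation, with counting intervals of -0.75 to 1.12 and -0.71 to 1.07. In Control B4GALNT4 was at 0.23 (-0.71 to 1.08) and HS3ST3A1 at 0.13 on 8 member UMIs. No difference was detectable there, while the intervals of EXT1 lay above 0 in each library. The 15 with the largest fall included, besides cell cycle genes and CALB2, GCAT (-0.76), SDHAF3 (-0.66), COA3 (-0.63) and FUOM (-0.63). Nuclear long noncoding RNAs were higher in 7 of 11 tested and lower in 0 (median 0.30). FTX (0.85) and NEAT1 (0.70) led, and NEAT1 stood at 185, 206, 286 and 346 CPM in members against 142, 147, 168 and 189 CPM in other cells. MALAT1, the most abundant nuclear RNA of the list, did not pass (0.06, adjusted p = 0.43), but was higher when scaled by the nuclear total (0.26, adjusted p = 3.4e-11). Splicing genes of the serine and arginine rich and CLK families were higher in 8 of 25 and lower in 4 (median 0.01). Under that scaling they were higher in 17 and lower in 0 (median 0.24, beside 0.22 over all genes). CCNL1 (0.45) and SRSF2 (0.35) were the highest, and SRSF3 (-0.29), SRSF5 (-0.29), TRA2B (-0.25) and SRSF1 (-0.17) were lower. Without Drug the adjusted p of TRA2B was 0.18 and its difference -0.16, and SRSF1 missed the threshold without Control, Drug or Drug_Radiation (adjusted p of 0.061, 0.29 and 0.15).

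The difference moved with the length of the gene on the chromosome. Over 7932 tested genes with a span in GENCODE 29, the median difference in 5 bins of span, short to long, was -0.26, -0.16, -0.02, 0.12 and 0.35. With members taken within bins of equal depth it was -0.21, -0.13, -0.01, 0.10 and 0.27. Spearman's rho across genes was 0.469, and genes are not independent replicates. The median span was 142 kb for the 334 stricter higher genes with a span, 9.27 kb for the 25 lower ones and 33.6 kb for all. From the shortest to the longest bin the median moved in the same direction in each library. The shift was smallest in Radiation, with -0.11 in the shortest and 0.14 in the longest bin, and widest in Drug_Radiation, with -0.32 and 0.38. The part of span in the results on single genes and on gene lists was not tested. In the shortest bin 16.3% of genes were higher and 61.0% lower. CCN2, CCN1, HES1, ZFP36 and DUSP6, which were higher, lie in it, and so do UBE2C, AURKB, RPSA, COA3 and FUOM, which were lower. The lists of ribosomal protein and respiratory chain genes had medians of -0.34 and -0.36, beside -0.26 in the shortest bin.

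**Figure D5:**
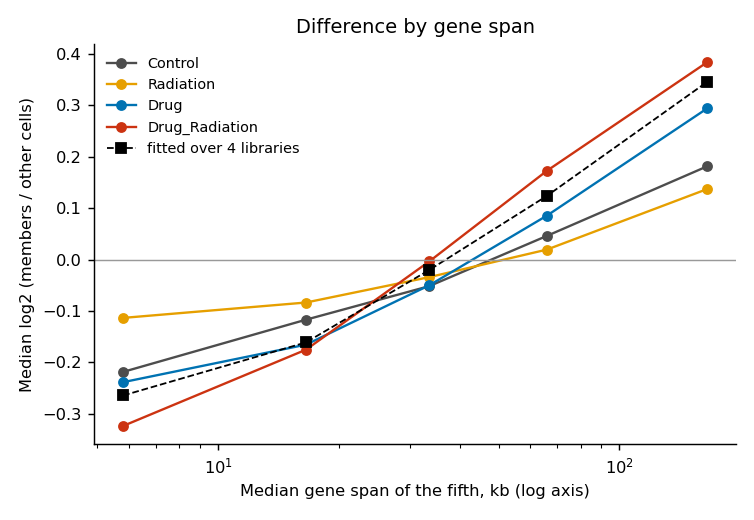
Median log2 difference of members over other cells (y axis) for genes in 5 groups of equal number by span (x axis, kb, log scale), for each library and for the fit over 4 libraries. Every line runs from below 0 for short genes to above 0 for long genes.

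Markers of other cell types were few in both classes. PTPRC, which defines leukocytes, had 0, 0, 0 and 1 UMIs in members against 3, 3, 18 and 23 in other cells. The 7 leukocyte markers summed to 20.6, 52.8, 31.0 and 36.0 CPM in members against 21.1, 46.3, 36.8 and 40.3 CPM in other cells, nearly all of it CD68, a lysosomal gene (-0.15, adjusted p = 0.084). The endothelial markers PECAM1, VWF, CDH5, KDR and ERG summed to 1, 1, 8 and 13 UMIs in members, or 1.47, 0.865, 0.885 and 0.882 CPM, against 1.86, 1.29, 1.53 and 1.35 CPM in other cells, with CDH5 at 0 in all members. The erythroid markers HBB, HBA1, HBA2 and ALAS2 summed to 1, 3, 43 and 22 UMIs in members, or 1.47, 2.59, 4.76 and 1.49 CPM, against 3.72, 2.83, 2.46 and 1.93 CPM in other cells. In Drug the erythroid sum was higher in members, nearly all of it HBA1 and HBA2, while HBB was at 0 in all members, and its part in other results was not tested. EGFL7, also endothelial, was above the minimum level and was lower (-0.25, or -0.14 with an adjusted p of 0.19 without Drug_Radiation). The markers of the line, among them VIM, KRT8 and KRT18, summed to 26582, 27414, 15557 and 16845 CPM in members against 31714, 29432, 17722 and 22706 CPM in other cells. S100A6 alone gave 13810, 11960, 5455 and 6749 CPM of the member sums. Other markers of this set were scarce, with 0, 0, 1 and 6 member UMIs of KRT19 and 1, 2, 15 and 40 of WT1. MSLN stood at 8.83, 14.7, 14.3 and 15.4 CPM in members against 10.5, 13.5, 11.6 and 13.9 CPM in other cells.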

How the data were processed

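The deposited matrices hold raw counts of UMIs for each gene and cell, 1 matrix for each of 4 libraries, and the authors' UMI counts were used as deposited. Per the labels' protocols, cells were captured with the PIPseq V 3' kit, while another label names a 10x platform. The submitters' processing notes name hg38 and Seurat 4.3.3. Aligner and strand setting: not given in the sources used here. Genes that overlap or share near-identical copies may therefore share counts. Median depth per cell differed between libraries, and intervals and limits cover counting error only. No cell barcode was shared between libraries (0 shared). No step removed doublets. Of the barcodes, 3184, 2428, 3806 and 7006 in Control, Radiation, Drug and Drug_Radiation, cells with 20% or more mitochondrial UMIs were left out.

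UMIs of members and of other cells were summed per library, without the 13 mitochondrial and the 7 ranking genes. The sums were tested with edgeR 4.0.16 (quasi-likelihood, robust, TMM, library as a block) in R 4.3.3 for genes with a mean of at least 10 CPM over the 8 sums, with Benjamini-Hochberg adjustment. The pairs differ in treatment, so the residual spread holds any dependence on treatment and may be partly technical. The cells of a library share its source and are not replicates. Ratios per library are log2 of (CPM + 1). Medians per cell were compared with exact two-sided sign-flip permutation tests in Python 3.11.15 with scipy 1.17.1. The procedure was tested on simulated data with known changes. Gene spans and coordinates come from GENCODE 29 (GRCh38), which names 92.0% of the files' genes. Promoters are from RefSeq; they matched 4583 of 7954 tested genes, so no share is given for a gene set.

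Members and lists were chosen with earlier results of these data known. Genes named are the 15 highest and 15 lowest with an adjusted p under 0.05 and 1 sign in 4 libraries, the 2 highest and 2 lowest of each of 23 lists, and a fixed set of early response and growth genes. The genes of this rule that do not appear stand in the counts. Other genes were named after their values were seen, to complete a list or a small count. The alternatives were other shares of cells, depth bins, other ranking genes, other scalings, DESeq2 1.42.0, no filter on low counts, thinning and each library left out. The stricter call, the fit on Drug and Drug_Radiation alone and the omission of single cells were added after seeing the data.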

Additional observations from a re-analysis of the deposited data

Results flagged for a closer look

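Of 142 named genes screened, 9 had a library that stood apart from the other libraries by Dixon's criterion, as log2 ratios of members over other cells; chance gives such a gap in about 1 of 20 sets. For 7 of the 9 the 95% counting interval of that library held the value of at least 1 other library, the exceptions being IL1B and ISG20, so the gap was not resolved for those 7. MAML2 was at 0.65 in Radiation, and at 1.05 to 1.11 in the other libraries. AURKA was at -0.12 in Control, and at -0.76 to -0.73 elsewhere. BAG3 was at -0.45 in Control, on 5 member UMIs, and at 0.44 to 0.51 elsewhere. EGLN1 was at -0.28 in Radiation, and at 0.45 to 0.51 elsewhere. SRSF2 was at 0.14 in Radiation (0.36 to 0.38 elsewhere) and EPHA2 at 0.12 in Radiation (0.54 to 0.61 elsewhere). SPARC was at -0.012 in Control (-0.19 to -0.17 elsewhere). IL1B was at 0.017 in Drug_Radiation (0.63 to 0.70 elsewhere), and ISG20 at -0.35 there (-0.21 to -0.18 elsewhere).

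For 3 genes the libraries with QTP lay on the other side of 0 from those without it, and this difference was not tested. SRF was at 0.13 in Drug and 0.32 in Drug_Radiation, against -0.99 in Control and -0.20 in Radiation. BTG2 was at -0.16 and -0.13, against 0.18 and 0.18. HSPA1A was at -0.21 and -0.18, against 0.16 and 0.33. The counting intervals of BTG2 included 0 in 4 of 4 libraries and those of SRF in Control, Radiation and Drug, with 4 member UMIs of SRF in Control, so their side of 0 was not resolved. The interval of HSPA1A included 0 in Control (-0.29 to 0.58).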

How the results depend on the processing

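Members and other cells were paired by library in every fit, so the library is the block throughout. Between treatments, each with 1 library, no further block could be fitted. A paired analysis between treatments was not possible for the same reason. Genes higher numbered 1768 when cells were ranked on FOS, FOSB and EGR1, 1768 in DESeq2, 909 with cells thinned, and 1744 to 2969 with a library left out. Genes lower numbered 855 scaled by the nuclear total, 1183 thinned, and 1448 to 2929 with a library left out. The stricter count of higher genes was 931 for the top 5%, 67 for the top 20%, 144 within depth bins, 27 on FOS, FOSB and EGR1, 575 against the lower 50%, 1328 scaled by the nuclear total, 210 with no filter, 525 in Drug and Drug_Radiation alone, and 313 to 438 with a library left out. The stricter count of lower genes under these settings was 166, 9, 15, 5, 64, 0, 474 and 57, with 15 at a mitochondrial limit of 10%, 145 thinned, and 21 to 42 with a library left out. The cause of these shifts was not tested. Thinning leaves fewer UMIs, and a left-out library fewer sums. Of the 360 stricter genes, 146 met the stricter call within depth bins, 26 on FOS, FOSB and EGR1, and 338 in Drug and Drug_Radiation alone.

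Ranked on FOS, FOSB and EGR1, the log2 difference in median UMIs per cell was 0.033. The mitochondrial difference was -0.102 percentage points within depth bins, -0.0856 at the 10% limit, -0.0390 on FOS, FOSB and EGR1, -0.0183 against the lower 50%, and -0.0595 to 0.0909 with a library left out. The signs were compared for the 141 named genes tested, not for all genes. Of those that changed sign, SPARC and SRSF1 had passed the test, and CDKN1A and RPS2 passed in the other direction under the nuclear total (CDKN1A also on FOS, FOSB and EGR1). Scaled by the nuclear total, SRF, MALAT1, DDIT3, MKI67, PLK2 and SERTAD1 also passed, and CNN2, TPM2, ISG20, ID3, EGFL7, SRSF3, SRSF5, TRA2B, TOP2A and CA9 no longer did. Scaled by the nuclear total, BTG2 was at 0.15, CDKN1A 0.16, RPS2 0.14, SPARC 0.048, CD68 0.089, HSPA1A 0.14 and SRSF1 0.043. On FOS, FOSB and EGR1, BTG2 was at 0.048, CDKN1A 0.12 and HSPA1A 0.019, and on the other 4 genes DDIT3 at -0.049 and SERTAD1 at -0.00036. Thinned, BTG2 was at 0.20 and HSPA1A at 0.17. In the top 20% CDKN1A was at 0.015 and in the top 5% HSPA1A at 0.065. Against the lower 50%, CDKN1A was at 0.012, MALAT1 -0.020 and MKI67 -0.0063. MALAT1 was at -0.087 within depth bins and -0.0089 at the 10% limit. With no filter, MALAT1 was at -0.063, DDIT3 -0.040, MKI67 -0.044, PLK2 -0.040 and SERTAD1 -0.085. In Drug and Drug_Radiation alone, MALAT1 was at -0.027, DDIT3 -0.038 and SERTAD1 -0.019. With each library left out, BTG2 ranged from -0.15 to 0.019, CDKN1A from -0.098 to 0.049, MALAT1 from -0.0085 to 0.14, DDIT3 from -0.0079 to 0.24, HSPA1A from -0.18 to 0.067 and SERTAD1 from -0.031 to 0.16.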
